A study of Saccharomyces cerevisiae with 12 samples.

Results

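Glycogen, the branched glucose store of the cytosol, was followed through the mRNAs of the 10 *S. cerevisiae* genes that make it, break it down and target the phosphatase that switches its synthesis on: *GLG1*, *GLG2*, *GSY1*, *GSY2*, *GLC3*, *GPH1*, *GDB1*, *GAC1*, *PIG1* and *PIG2*. They were chosen by function and found on the array by gene symbol. Each of the 10 had 1 probe and a value in all 6 arrays, and the filter on missing values removed 0 features, so the 10 genes stand among 6019 genes and unnamed open reading frames. The cells were wild-type JN54, a *MATa* laboratory strain auxotrophic through mutations of *HIS3*, *LEU2*, *URA3*, *TRP1* and *LYS2*, and both sides of every comparison carried these mutations. They were grown in YPD medium at 30°C and then transferred to YPD already at 43°C. After 30 min or 60 min they were compared with controls kept at 30°C for as long. Poly(A) RNA of heat-shocked cells, labelled with Cy5, and of controls, labelled with Cy3, was hybridized together to cDNA microarrays in 3 experiments at each time. The paper calls the experiments independent, and no source states that they came from separate cultures, so the spread between them may be partly technical.

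In yeast, glycogenin attaches glucose to itself and forms the primer on which glycogen synthase, fed by UDP-glucose, builds linear chains, and the branching enzyme adds the branch points. Glycogen phosphorylase and the debranching enzyme release the stored glucose. The activity of the synthase is set largely by phosphorylation: kinases such as Pho85 hold it down, and the phosphatase Glc7, brought to it by targeting subunits such as Gac1, restores it. Glycogen accumulates as cells run out of nutrients and under several stresses, and many of its genes are known to carry stress response elements. The arrays measured mRNA, not glycogen and not enzyme activity.

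Each value is a log2 ratio of heat-shocked over control cells, so that 0 is no difference, 1 is 2-fold higher and -1 is 2-fold lower. The base of the logarithm is not named in the sources and was read as 2. Over all features the arrays had medians from -0.01 to 0.03 and median absolute deviations from 0.56 to 1.04. With medians this near 0, a change shared by most mRNAs would not show, so rises and falls are relative to the typical feature. *HSP12*, *SSA4* and *HSP26*, which are heat-shock genes, were above 0 in every array. *HSP12*, for example, had log2 ratios of 4.40, 4.88 and 3.79 at 30 min and 5.51, 4.91 and 3.86 at 60 min in experiments 1, 2 and 3. A gene is said to have risen or fallen where the mean ratio differed from 0 by limma at an adjusted p under 0.05, with the adjustment over all 6019 features and 1 estimate of the spread for both times. Dyes were not swapped in any array described, and a bias of a gene toward 1 dye cannot be told apart from heat shock. In bulk RNA, fewer cells with a transcript and less of it per cell cannot be told apart.

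After 30 min at 43°C, 3 of the 10 glycogen genes rose and 0 fell. They were *GAC1*, which encodes a targeting subunit of Glc7, and both genes of glycogen breakdown, *GPH1* and *GDB1*. Over all features, 10.7% rose and 15.9% fell at this time. After 60 min, 1 of the 10 rose, *GAC1* again, and 0 fell, where 15.6% and 18.2% of all features did. The genes of the glycogen chain itself, 2 glycogenins, 2 synthases and the branching enzyme, did not pass the test at either time. The median over the 10 genes was 0.29 at 30 min and 0.02 at 60 min on the log2 scale, against -0.01 and 0.01 over all features. At an unadjusted p under 0.05 the count was 3 and 1 of the 10, none of them below 0, where 40.5% and 44.9% of all features passed. Only *GAC1* lay on 1 side of 0 in all 6 arrays, against 40.4% of the 5989 features measured in every array. By the rule of the study's methods, a ratio over 2 in at least 2 of the 3 experiments, *GAC1* alone of the 10 was up at each time (background 4.42% at 30 min and 6.89% at 60 min), and none was down (background 10.2% and 10.5%).

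**Figure D1:**
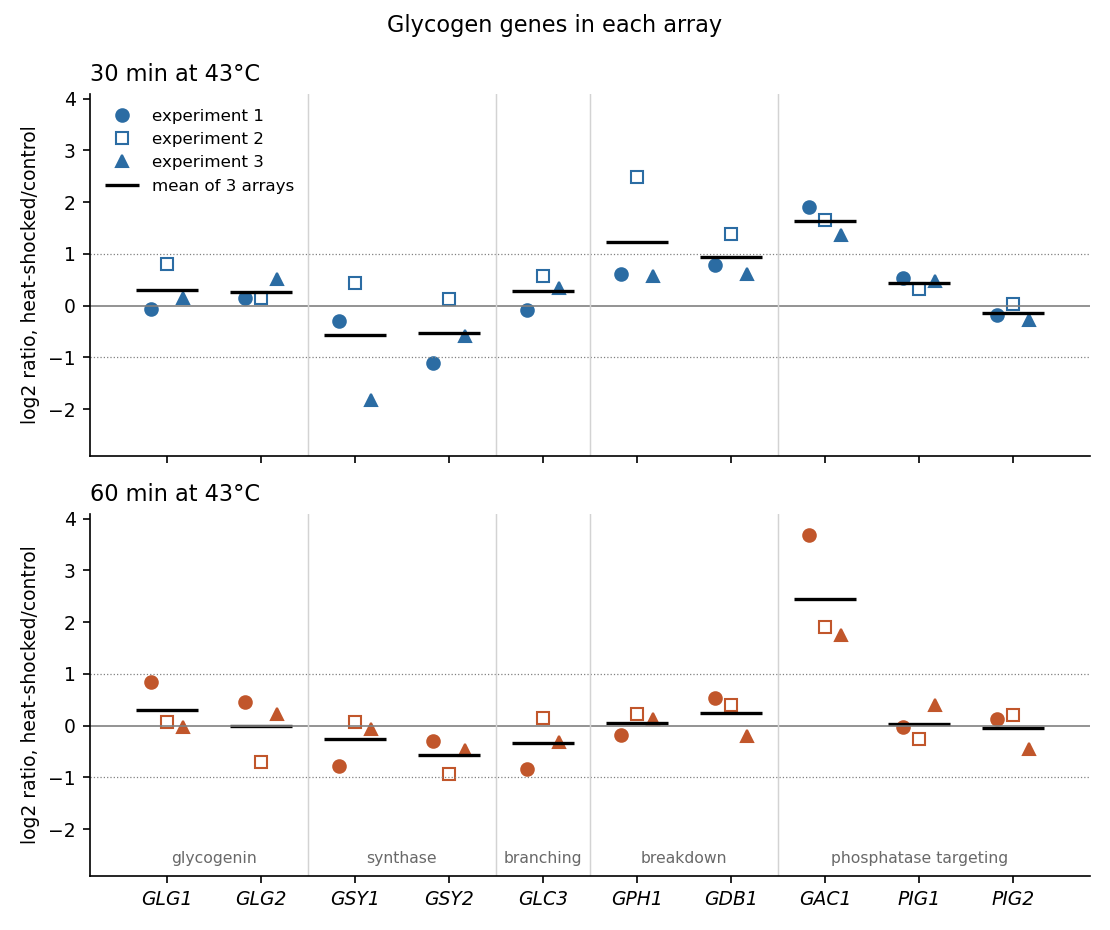
Log2 ratio of heat-shocked over control cells (vertical axis) for the 10 glycogen genes (horizontal axis) in each of the 3 experiments at 30 min (top) and 60 min (bottom). Symbols are single arrays, black bars are means of 3 arrays, and dotted lines mark 2-fold. All 6 values of *GAC1* lie above the upper dotted line, from 1.37 to 3.69, while most values of the other genes lie between the dotted lines.

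*GAC1* (YOR178C) stood apart from the other members. Gac1 brings Glc7 to glycogen synthase, and it has also been reported to bind the heat shock factor Hsf1. Its log2 ratios at 30 min were 1.90, 1.66 and 1.37 in experiments 1, 2 and 3, and at 60 min 3.69, 1.90 and 1.76. All 6 values were thus over 2-fold, which held for 1.12% of those 5989 features. The ranges of the 2 times overlapped, and experiment 1 at 60 min was the highest. At 30 min the mean was 1.64 ± 0.27 (SD, n = 3, limma adjusted p = 0.00548), or 3.13-fold. At 60 min it was 2.45 ± 1.08 (SD, n = 3, adjusted p = 0.000411), or 5.46-fold. If the values were natural logarithms, the folds would be 5.18 and 11.6. Among the 6019 features ordered from the highest mean ratio, *GAC1* was number 49 at 30 min and number 20 at 60 min. Within single arrays it lay between percentiles 98.7 and 99.8. *GAC1* was the highest of the 10 genes in 5 of the 6 arrays, and in experiment 2 at 30 min *GPH1* was higher. Its call at 30 min was narrowly lost when experiment 1 of 30 min was left out (log2 ratio 1.51, adjusted p = 0.0524, within a range of 1.87e-05 to 0.0524 over 18 other ways of processing). The call at 60 min was kept in all 18, with adjusted p between 1.43e-05 and 0.00434. Of the 18, the low power scan held the same values and could not change a call.

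*PIG1* and *PIG2* encode the other Glc7-binding proteins of the list, both known to interact with the synthase Gsy2. *PIG1* (YLR273C), the relative of *GAC1*, had log2 ratios of 0.53, 0.32 and 0.48 at 30 min and -0.02, -0.26 and 0.40 at 60 min. Its mean of 0.44 ± 0.11 (SD, n = 3) at 30 min had a 95% interval of -0.02 to 0.90 and did not pass the test (adjusted p = 0.135 from limma), though it did with array weights (adjusted p = 0.0343) and with 30 min fitted alone (adjusted p = 0.0480), within a range of 0.0343 to 0.408. *PIG2* (YIL045W) had -0.19, 0.04 and -0.28 at 30 min and 0.12, 0.21 and -0.45 at 60 min. The values of *PIG2* lay on both sides of 0 at each time, and those of *PIG1* at 60 min. In each array the log2 ratio of *GAC1* exceeded that of *PIG1* by 0.89 to 3.71 and that of *PIG2* by 1.62 to 3.57. These differences were not tested.

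Both genes of glycogen breakdown were above 0 in all 3 experiments at 30 min. *GPH1* (YPR160W), the glycogen phosphorylase, had log2 ratios of 0.62, 2.49 and 0.58 at 30 min, and -0.19, 0.23 and 0.13 at 60 min. *GDB1* (YPR184W), the debranching enzyme, had 0.79, 1.39 and 0.61 at 30 min, and 0.54, 0.39 and -0.20 at 60 min. For each gene every value at 30 min was higher than every value at 60 min, and experiment 2 at 30 min was the highest. Values of the 2 times did not overlap, in either direction, for 16.2% of the 5989 features measured in every array. *GPH1* had a mean of 1.23 ± 1.09 (SD, n = 3, adjusted p = 0.0216 from limma) at 30 min, or 2.35-fold, and of 0.06 ± 0.22 (SD, n = 3, adjusted p = 0.911) at 60 min. *GDB1* had 0.93 ± 0.41 (SD, n = 3, adjusted p = 0.0152) at 30 min, or 1.91-fold, and 0.24 ± 0.39 (SD, n = 3, adjusted p = 0.449) at 60 min.

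The calls of the breakdown genes depended on experiment 2. Without experiment 2 of 30 min, *GPH1* had a log2 ratio of 0.60 (adjusted p = 0.213) and *GDB1* of 0.70 (adjusted p = 0.174). *GDB1* also lost its call without experiment 1 of 30 min (adjusted p = 0.0752), and *GPH1* without experiment 3 of both times (adjusted p = 0.0556). Over the 18 other ways of processing, adjusted p lay between 0.000491 and 0.213 for *GPH1* and between 0.000236 and 0.174 for *GDB1* at 30 min. In that same array all 10 glycogen genes were above 0, against 5 in experiment 1 and 7 in experiment 3. General stress genes were also high in it. The median of 12 such genes was 2.59 in experiment 2 at 30 min, and 1.58 and 1.45 in experiments 1 and 3. At 60 min it was 2.26, 1.36 and 0.66 in experiments 1, 2 and 3. The median of the 10 glycogen genes at 60 min was 0.05, 0.12 and -0.04 in the same order. Why experiment 2 of 30 min had higher values was not tested.

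**Figure D2:**
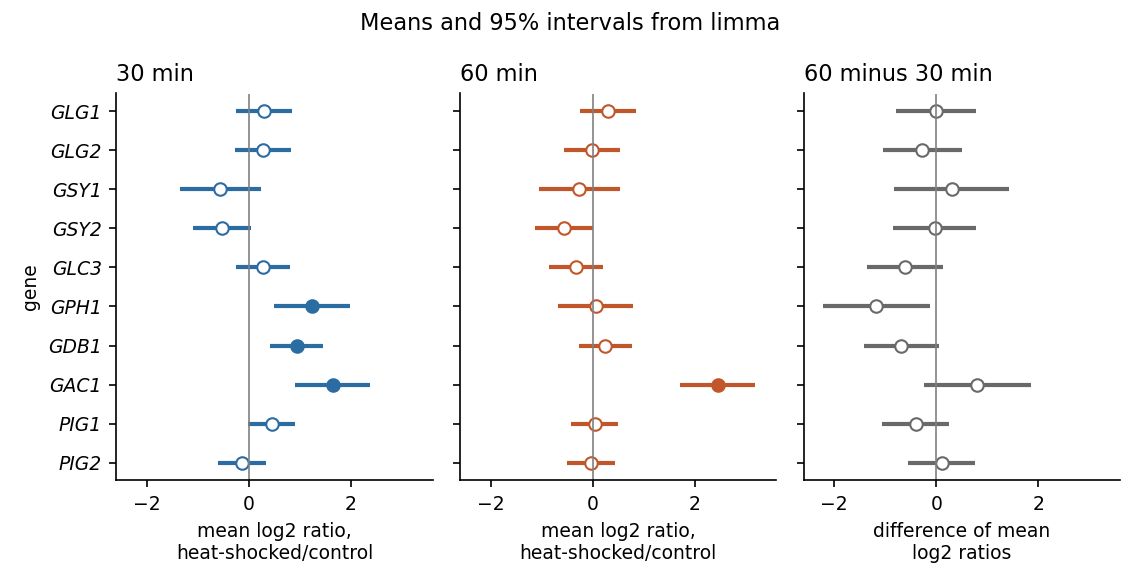
Mean log2 ratio of each glycogen gene at 30 min (left) and 60 min (middle), and the difference of the means, 60 minus 30 min (right), with 95% intervals from limma as horizontal lines. Filled circles have an adjusted p under 0.05: *GPH1*, *GDB1* and *GAC1* at 30 min, *GAC1* at 60 min, and no gene in the difference.

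The 2 glycogen synthases were on average below 0. *GSY2* (YLR258W), the main isoform, had log2 ratios of -1.12, 0.12 and -0.59 at 30 min and -0.29, -0.94 and -0.46 at 60 min. It was below 0 in 5 of the 6 arrays and above 0 only in experiment 2 at 30 min. Its means of -0.53 ± 0.62 and -0.56 ± 0.34 (SD, n = 3 each) did not pass the test (adjusted p = 0.148 and 0.115 from limma). The 95% intervals, -1.10 to 0.04 and -1.13 to 0.01, hold a fall of 2-fold as well as no change. *GSY1* (YFR015C), the second isoform, had -0.30, 0.43 and -1.82 at 30 min, the widest spread of the 10 genes at that time. At 60 min it had -0.79, 0.08 and -0.07. Its mean at 30 min, -0.56 ± 1.15 (SD, n = 3, adjusted p = 0.262), turned to 0.06 without experiment 3 of 30 min, so its sign was not settled.

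The glycogenins and the branching enzyme lay close to 0. *GLG1* (YKR058W) had log2 ratios of -0.06, 0.80 and 0.15 at 30 min and 0.84, 0.06 and -0.02 at 60 min. *GLG2* (YJL137C) had 0.15, 0.14 and 0.51 at 30 min and 0.45, -0.70 and 0.23 at 60 min. *GLC3* (YEL011W), the branching enzyme, had -0.08, 0.56 and 0.34 at 30 min and -0.84, 0.16 and -0.32 at 60 min. No value of these 3 genes reached 2-fold in either direction, and for each the 2 times overlapped. The means lay between -0.33 and 0.30 (adjusted p between 0.307 and 0.989 from limma). At 30 min the 95% interval of *GLG1* ran from -0.25 to 0.85, so a rise of under 2-fold could not be told from no change. With array weights *GLG1* passed the test at 30 min (log2 ratio 0.46, adjusted p = 0.0481, within a range of 0.0481 to 0.937).

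*GLG2* was called only once the values were centred within print blocks. The blocks, 192 in all, were read from the first 3 digits of the probe identifiers and taken to be print blocks. The block of *GLG2* had a median log2 ratio below 0 in every array, averaging -0.43 at 30 min and -0.70 at 60 min. With each array centred within blocks, *GLG2* had a log2 ratio of 0.70 at 30 min (adjusted p = 0.0239 from limma, within a range of 0.0239 to 0.787 over all settings) and 0.69 at 60 min (adjusted p = 0.0232, range 0.0232 to 0.992), and passed the test. The part of the block in its ratio was not otherwise tested. The blocks of the other 9 genes had mean medians between -0.28 and 0.25. The 3 genes called in the uncentred values passed with block centring too, *GAC1* with 1.80 and 2.37, *GPH1* with 1.20 and *GDB1* with 1.15 at 30 min. The block of *GSY2* had medians from -0.94 to 0.95 over the 6 arrays. With block centring *GSY2* had means of -0.32 and -0.60, and it did not pass the test under any of the 18 other ways of processing (adjusted p from 0.0790 to 0.661 at 30 min and from 0.0904 to 0.377 at 60 min).

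The breakdown genes were set against the synthase genes within arrays, a comparison chosen after the values were seen. The glycogenins and the branching enzyme, which also serve synthesis, were left out of it. In experiment 1 at 60 min, for example, *GLG1* and *GLG2* had higher ratios than *GPH1*, and *GLC3* had a lower one. The log2 ratio of *GPH1* exceeded that of *GSY2* in 6 of 6 arrays, by 1.74, 2.37 and 1.17 at 30 min and by 0.10, 1.17 and 0.59 at 60 min. *GDB1* exceeded *GSY2* in 6 of 6 arrays as well, by 1.91, 1.27 and 1.21 and then by 0.83, 1.33 and 0.26. *GPH1* exceeded *GSY1* in 6 of 6 arrays and *GDB1* exceeded *GSY1* in 5. These are unequal ratios of heat-shocked over control cells and not unequal mRNA levels, and the differences were not tested. The counts are from values not centred within blocks. In experiment 2 at 60 min the block of *GSY2* had a median log2 ratio of -0.94, the same as *GSY2* itself. The block of *GPH1* had 0.39 in that array, above the 0.23 of *GPH1*. With block centring *GPH1* thus lay below *GSY2* there. *GSY1* and *GSY2*, and *GLG1* and *GLG2*, showed no fixed order: *GSY1* was above *GSY2* in 4 of 6 arrays and *GLG1* above *GLG2* in 3.

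To ask whether the longer heat shock changed the picture, 60 min was compared with 30 min directly. Of the 10 genes, 0 differed by limma after adjustment, as did 0% of all features, and 1 had an unadjusted p under 0.05, where 8.57% of all features did. That gene was *GPH1*, lower at 60 min by a log2 difference of -1.17 (95% interval -2.22 to -0.12, unadjusted p = 0.0317 and adjusted p = 0.532 from limma). *GDB1* had -0.69 (95% interval -1.42 to 0.05, adjusted p = 0.590), and *GLC3* -0.61 (95% interval -1.36 to 0.14, adjusted p = 0.625). *GAC1* had 0.81 (95% interval -0.24 to 1.85, adjusted p = 0.647), an interval that holds no change as well as a further rise of over 2-fold. The values of the 2 times did not overlap for 2 of the 10 genes, *GPH1* and *GDB1*, against 16.2% of the 5989 features measured in every array. That the breakdown genes passed the test at 30 min and not at 60 min is therefore not shown to be a difference between the times.

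**Figure D3:**
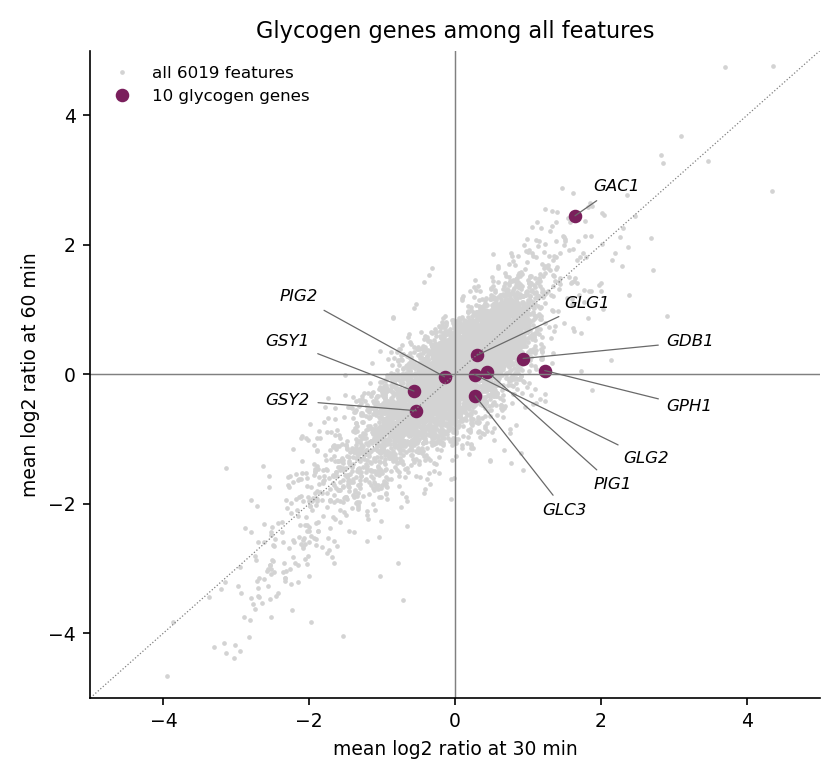
Mean log2 ratio at 30 min (horizontal axis) against 60 min (vertical axis) for all 6019 features (grey) and the 10 glycogen genes (purple, labelled); the dotted line marks equal ratios. *GAC1* lies at 1.64 and 2.45 in the upper right, *GPH1* and *GDB1* lie right of the other 7 near the horizontal axis, and *GSY1* and *GSY2* lie below and left of the centre.

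Of the 6 genes that supply glucose residues to glycogen, 2 rose and 3 fell at 30 min, where 10.7% of all features rose and 15.9% fell. At 60 min 1 rose and 3 fell, where 15.6% and 18.2% of all features did. *PGM1* (YKL127W), the minor phosphoglucomutase that makes glucose-1-phosphate, had log2 ratios of -2.09, -1.88 and -1.70 at 30 min and -1.06, -2.62 and -2.09 at 60 min. It was over 2-fold down in every array, with means of -1.89 ± 0.20 and then -1.92 ± 0.80 (SD, n = 3 each), and fell at both times by limma (adjusted p = 0.000915 and 0.000583). *PGM2* (YMR105C), the major isoform, had 0.21, 2.22 and 0.38 at 30 min and 1.27, 1.04 and 0.25 at 60 min. All 6 of its values were above 0, but the means, 0.94 ± 1.11 and 0.86 ± 0.53 (SD, n = 3 each), did not pass the test (adjusted p = 0.0773 and 0.0898, with 0.00257 to 0.592 and 0.0300 to 0.368 under other processing). The 2 isoforms thus lay on opposite sides of 0 in all arrays.

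*UGP1* (YKL035W), which encodes the enzyme that makes UDP-glucose, was below 0 in every array. It had log2 ratios of -1.07, -0.43 and -0.66 at 30 min and of -1.27, -1.98 and -2.24 at 60 min. The mean at 60 min was -1.83 ± 0.50 (SD, n = 3, adjusted p = 0.000328 from limma), or a fall to 0.282 of control. The mean at 30 min was -0.72 ± 0.32 (SD, n = 3, adjusted p = 0.0476), and that call was lost without any 1 of the experiments of 30 min (adjusted p from 0.123 to 0.298, within a range of 0.00668 to 0.298). With all arrays kept, it was also lost with block centring (adjusted p = 0.0926). The same held with the arrays scaled to the same median absolute deviation (adjusted p = 0.0594). Among the kinases that phosphorylate glucose, *HXK1* had 1.18, 2.91 and 2.34 at 30 min and 0.37, -0.29 and 0.60 at 60 min. *HXK1* rose at 30 min (mean 2.14 ± 0.88, SD, n = 3, adjusted p = 0.000830), *GLK1* rose at both times, and *HXK2* fell at both times.

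Of 15 measured genes of the phosphatase and kinases that act on the synthase and phosphorylase, 1 rose and 3 fell at each time, counts near the shares over all features (10.7% up and 15.9% down at 30 min, 15.6% and 18.2% at 60 min). *REG2* (YBR050C), a regulatory subunit of Glc7, rose at both times, with 0.92, 1.04 and 1.13 at 30 min and 1.89, 1.35 and 0.92 at 60 min (means 1.03 ± 0.10 and 1.39 ± 0.49, SD, n = 3 each, adjusted p = 0.00781 and 0.00119 from limma). At 30 min *REG2* no longer passed once experiment 2 or 3 was left out (adjusted p = 0.0692 and 0.0517, within a range of 0.000140 to 0.0692). *GLC7* (YER133W), the phosphatase that Gac1 binds, had 0.78, -1.20 and -1.13 at 30 min and -1.23, -1.04 and -0.83 at 60 min. Experiment 1 at 30 min was its only value above 0. It fell at 60 min (mean -1.03 ± 0.20, SD, n = 3, adjusted p = 0.0388), but no longer passed with any 1 of the experiments of 60 min left out (adjusted p from 0.0795 to 0.112, within a range of 0.00735 to 0.145). The call at 60 min was also lost with the arrays scaled to the same median absolute deviation (adjusted p = 0.0518 from limma) or weighted (adjusted p = 0.145). At 30 min *GLC7* passed with experiment 1 left out (log2 ratio -1.17, adjusted p = 0.0242). With all arrays kept, it passed at 30 min with block centring (log2 ratio -0.70, adjusted p = 0.0321).

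*SNF4* (YGL115W), a subunit of the Snf1 kinase, fell at both times (means -0.67 ± 0.40 and -0.77 ± 0.19, SD, n = 3 each, adjusted p = 0.0439 and 0.0207 from limma). Both calls of *SNF4* depended on single arrays, with adjusted p up to 0.293 at 30 min without experiment 2 of 30 min and up to 0.0807 at 60 min without experiment 2 of 60 min. The other genes of this group that fell were *SNF1* and *TPK3* at 30 min and *BCY1* at 60 min. *PHO85* and its cyclin genes *PCL6*, *PCL7*, *PCL8* and *PCL10* did not pass the test at either time. *GIP2* (YER054C), the relative of *PIG2*, had 0.14, 0.47 and 0.10 at 30 min and 1.10, -1.0 and 0.23 at 60 min, with experiments 1 and 2 of 60 min on opposite sides of 0.

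**Figure D4:**
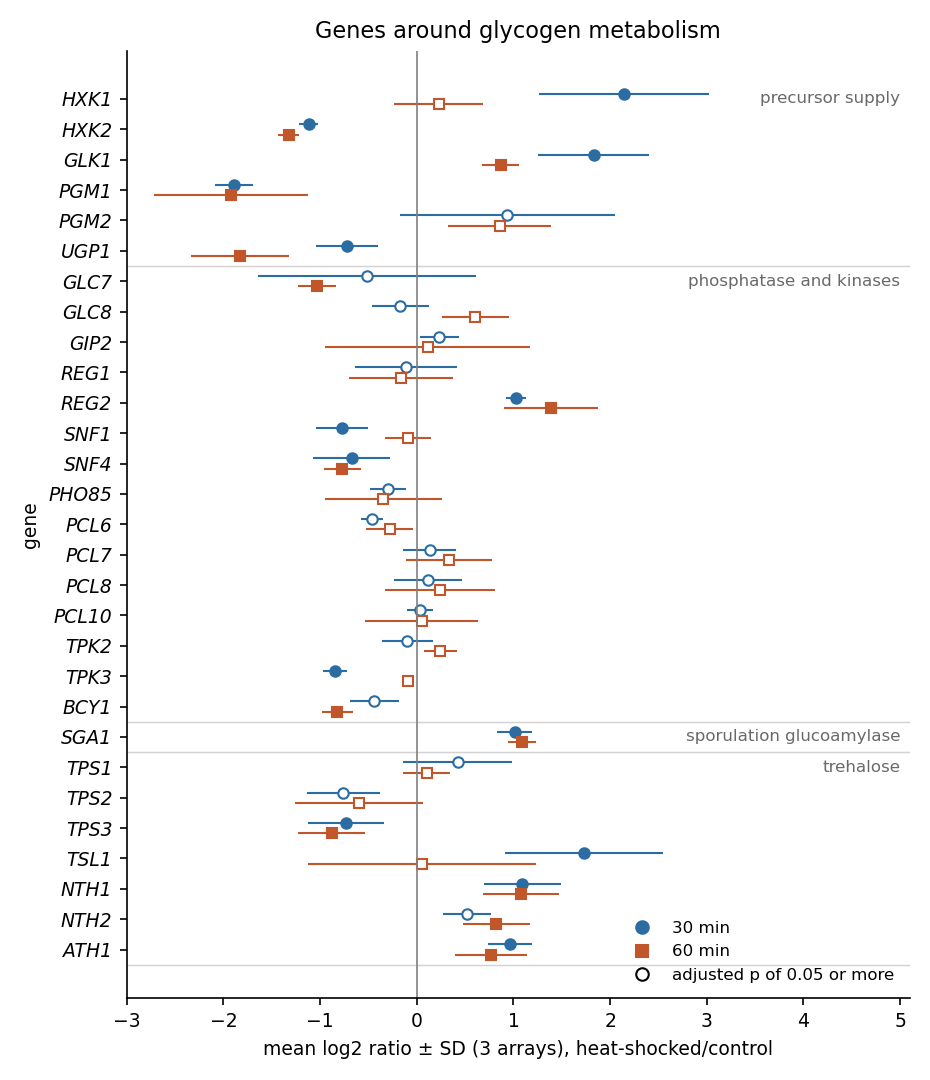
Mean log2 ratio (horizontal axis, bars are ± SD of 3 arrays) at 30 min (blue circles) and 60 min (orange squares) for genes of glucose residue supply, phosphatase and kinases, the sporulation glucoamylase and trehalose metabolism (vertical axis). Filled symbols have an adjusted p under 0.05 from limma. *PGM1*, *UGP1* and *HXK2* lie left of 0 at both times, and *REG2*, *SGA1*, *NTH1* and *ATH1* lie right of it.

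*SGA1* (YIL099W), the glucoamylase that degrades glycogen in sporulating cells, was above 0 in every array. It had log2 ratios of 1.21, 0.98 and 0.85 at 30 min and 0.92, 1.16 and 1.17 at 60 min. The means were 1.01 ± 0.18 and 1.09 ± 0.14 (SD, n = 3 each, adjusted p = 0.00435 and 0.00233 from limma). Intensities were not used, so whether the signal of *SGA1* lay near the background is not known. Its call at 30 min did not survive leaving out experiment 1 of 30 min (adjusted p = 0.0581, the highest under any alternative) or block centring (log2 ratio 0.62, adjusted p = 0.0576).

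Trehalose, the other storage sugar of yeast, shares UDP-glucose with glycogen. Of its 7 genes, 3 rose and 1 fell at each time, beside 10.7% up and 15.9% down over all features at 30 min and 15.6% and 18.2% at 60 min. *TSL1* (YML100W), a subunit of trehalose synthase, had log2 ratios of 1.48, 2.64 and 1.06 at 30 min and 0.85, 0.62 and -1.30 at 60 min. Its mean at 30 min was 1.73 ± 0.82 (SD, n = 3, adjusted p = 0.0108 from limma), a call that depended on experiment 2 of 30 min (adjusted p = 0.120 when it was left out, range 8.01e-05 to 0.120). *NTH1* (YDR001C), the neutral trehalase, rose at both times (means 1.09 ± 0.40 and 1.08 ± 0.40, SD, n = 3 each, adjusted p = 0.00711 and 0.00618), the call at 30 min depending on experiments 1 and 2 (adjusted p = 0.0635 and 0.0950 when left out, range 6.90e-05 to 0.0950). *TPS3* (YMR261C), another subunit of the synthase, fell at both times (means -0.73 ± 0.40 and -0.88 ± 0.35, SD, n = 3 each, limma adjusted p = 0.0376 and 0.0143). Its calls held neither with any 1 experiment of 30 min left out (adjusted p from 0.0560 to 0.285) nor, at 60 min, with experiment 3 left out (adjusted p = 0.0852). Of 10 glucose-repressed genes, 4 rose and 0 fell at 30 min and 3 rose and 1 fell at 60 min. Their medians were 0.75 and 0.28. Over all features, 10.7% rose and 15.9% fell at 30 min and 15.6% and 18.2% at 60 min. The arrays hold no measure of glucose, and the part of the glucose-repressed genes in the glycogen values was not tested.

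**Figure D5:**
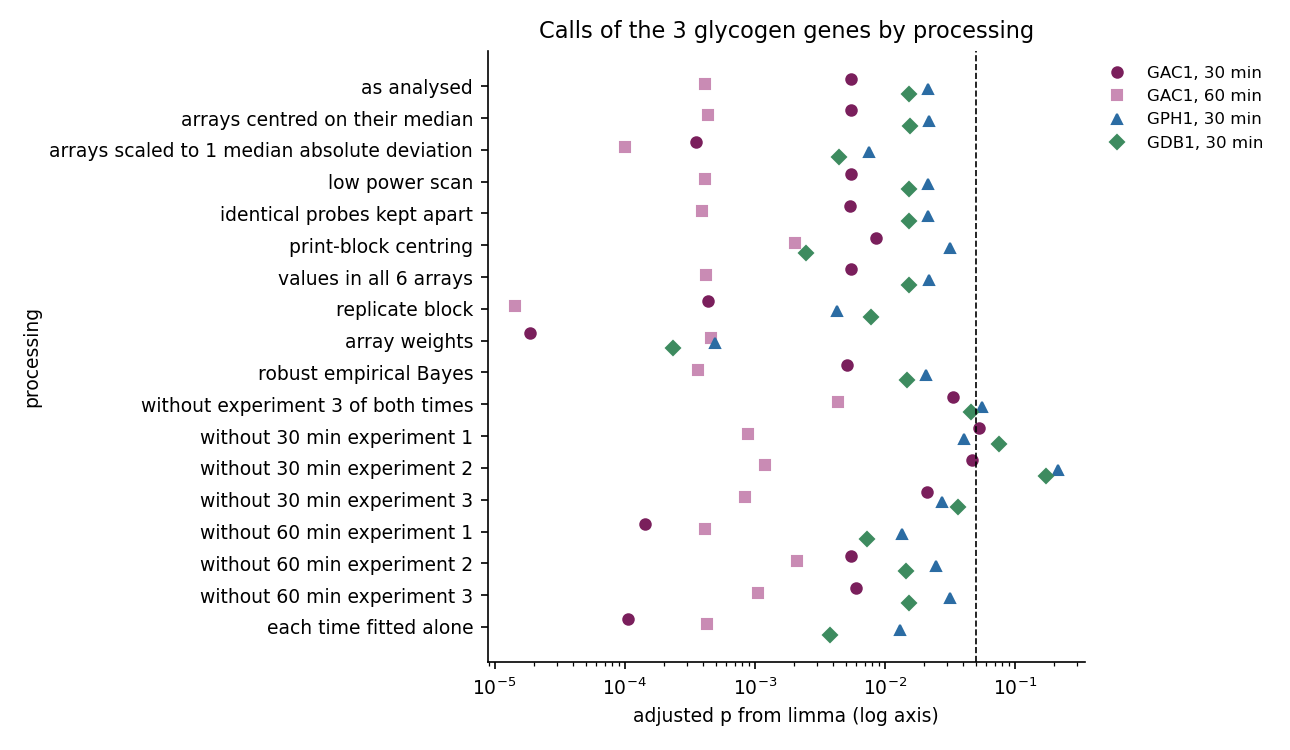
Adjusted p from limma (horizontal axis, log scale) of the 3 glycogen genes that were called, under each way of processing (vertical axis). The dashed line is the threshold of 0.05. *GAC1* at 60 min lies left of it throughout, and *GPH1* and *GDB1* at 30 min lie farthest right without experiment 2 of 30 min, at 0.213 and 0.174.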

How the data were processed

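Spots were quantified by the authors in GenePix from a high and a low power scan, and Cy5/Cy3 was normalized on negative control spots in Chip Cleanser. The deposited table holds log ratios, read here as log2, in 12 columns, 1 for each scan. Both scans of every array held the same values (0 differed), and each array was counted once. Read as log2, 266 features were over 2-fold up at 30 min by the study's rule, against 844 for natural logarithms and 1971 for log10. The log2 count is the nearest of them to the number of up-regulated genes the paper reports. This reading was chosen with the values in view. Of 6912 probes, 6162 had a value, and 203 probes in 78 groups of identical values were counted once per group. Distinct probes of a gene were averaged, which left 6019 features, 5376 of them named by the platform annotation. Systematic names came from RefSeq. The array's genome build is not given in the sources used here, so no positions are printed. Intensities and background were not used, and precision depends on how many arrays there are.

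Ratios at each time were tested against 0, and 60 against 30 min, in 1 limma 3.58.1 model (R 4.3.3; 4 residual and 6.76 prior degrees of freedom; Benjamini-Hochberg adjustment), first tested on simulated data. All members were named with their values, and values were printed for up to 4 genes of each other list. The members and lists were chosen with earlier results of these data known. Alternatives were other centring, scaling, filters, array weights, robust moderation, each time alone, experiment number as a replicate block, a stricter threshold and experiments left out. The low power scan was counted among them, though its identical values could not change a result.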

Additional observations from a re-analysis of the deposited data

How the results depend on the processing

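Precision rests on 3 arrays a time, and each array left out leaves 2. Of the 10 glycogen genes, 3 passed limma at 30 min, and 5 did with array weights, 1 without experiment 1 and 1 without experiment 2 of 30 min (range 1 to 3 over the arrays left out), and 1 at an adjusted p under 0.01. At 60 min 1 passed, and 2 with print-block centring. Over 2-fold at 30 min was 1 gene, but 2 with print-block centring, with the mean ratio or with natural logarithms, and 7 with log10, which gave 4 at 60 min. The cause of these shifts was not tested, beyond fewer arrays or a wider reading of the scale. The count of genes that differed between the times was 0 under every alternative run.

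Values that turned sign were all uncalled as analysed. Print-block centring gave *GLG1* a difference between the times of 0.32 and *GLG2*, *GPH1*, *PIG2* and *GIP2* log2 ratios at 60 min of 0.69, -0.19, 0.15 and -0.017. Scaling of the arrays gave *GLG2* 0.032 and *TSL1* -0.19 at 60 min and *GSY2* a difference of 0.050. Array weights gave *GLG2* 0.055 and *TSL1* -0.37 at 60 min, and *GSY1* and *PIG2* differences of -0.021 and -0.087. Without experiment 3 of both times, *GSY1* had 0.063 at 30 min and a difference of -0.42, *GLG1* a difference of 0.079, and *PIG1* and *PIG2* -0.14 and 0.17 at 60 min. With 1 array left out, the differences between the times ran from -0.28 to 0.24 for *GLG1*, -0.50 to 0.072 for *GLG2*, -0.32 to 0.80 for *GSY1*, -0.33 to 0.29 for *GSY2* and -0.019 to 0.31 for *PIG2*. The ratios at 60 min ran from -0.23 to 0.34 for *GLG2*, -0.43 to 0.0036 for *GSY1*, -0.028 to 0.18 for *GPH1*, -0.14 to 0.19 for *PIG1*, -0.16 to 0.17 for *PIG2*, -0.38 to 0.67 for *GIP2* and -0.34 to 0.74 for *TSL1*, and that of *GSY1* at 30 min from -1.06 to 0.063.

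Same-numbered experiments had correlations of their deviations of -0.04, 0.12 and 0.35 for experiments 1, 2 and 3 across 5989 features. The highest correlation of each 30 min array with a differently numbered 60 min array was 0.19, 0.05 and 0.002. The same number was thus the closest match for experiments 2 and 3 but not for experiment 1. The paper describes no pairing, and the main model used none. With the number as a replicate block, 3 glycogen genes passed at 30 min, 1 at 60 min and 0 between the times, and *PGM2* passed at both times (adjusted p = 0.0236 and 0.0300).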

Other observations

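By the root mean square difference of log2 ratios over the 6 arrays, the 5 named genes most like *GPH1* among 5355 were *ALD4* (0.53), *PNC1* (0.54), *GDB1* (0.57), *GAD1* (0.59) and *UGA1* (0.60), with the debranching enzyme gene among them. The 4 others encode a mitochondrial aldehyde dehydrogenase, a nicotinamidase and 2 enzymes of glutamate and 4-aminobutyrate metabolism. Their means at 30 and 60 min were, for example, 0.92 and 0.28 for *ALD4* and 0.85 and -0.23 for *PNC1*, an order that choosing genes by likeness to *GPH1* largely fixes. The 5 most like *GSY2* were *PEX8* (0.24), *BUD3* (0.25), *POM33* (0.25), *SAM50* (0.27) and *YOR142W-A* (0.27). Genes measured on 1 array share its slide and labelling and may share a block, and the distances are descriptions over 6 points.

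No 2 of the 10 genes are chromosomal neighbours in RefSeq order. Of the 20 neighbours of the 10 genes, 17 were measured, of which 3 rose and 3 fell at 30 min and 2 rose and 4 fell at 60 min by limma, near the shares over all features (10.7% up and 15.9% down at 30 min, 15.6% and 18.2% at 60 min). *MPC54*, a meiotic spindle pole body gene next to *GAC1*, rose by log2 ratios of 0.86 ± 0.09 and 1.43 ± 0.57 (SD, n = 3 each, adjusted p = 0.0220 and 0.00135), while *SYC1* on the other side had 0.01 ± 0.23 (adjusted p = 0.966) at 30 min and fell by 0.90 ± 0.41 (adjusted p = 0.0111) at 60 min. *TIF1* beside *GLG1* and *TIF2* beside *GLG2*, which encode the same translation initiation factor, fell at both times, *TIF1* with -2.18 and -1.93 and *TIF2* with -1.96 and -1.96. This count was chosen after the values were seen.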
